A study of Homo sapiens with 6 samples.

Results

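The genes of 8 transcription factors of the liver lineage were examined in lists of regions occupied by RNA polymerase II. The genes were HNF4A, FOXA1, FOXA2, FOXA3, CEBPA, CEBPB, ONECUT1 and PROX1, out of 16428 gene symbols in the lists. All regions were taken whose deposited gene symbol, that of the gene with the nearest start, was one of these. This gave 217 of the 271336 regions of 4 lists. RPB1, the largest subunit of RNA polymerase II, and RPB1 phosphorylated on serine 2 of its C-terminal repeats (pSer2) were profiled by ChIP-seq in HepG2 cells, a line from a human liver tumor. One clonal line carried a CRISPR disruption of the phosphatase gene PTPN6 (SHP-1 KO), which region lists cannot show. The other line had intact SHP-1 (WT), and the sources do not state whether its cells were untransfected or carried a nontargeting guide. Each antibody gave 1 library per cell line, so that SHP-1 status and clone cannot be told apart. Each region carries a fold enrichment over the input DNA of the same cells at its summit, the base with the highest signal. The lists hold fold enrichments and not counts, so depth is unknown, and no test was possible. A percentile is the share of regions of a list at or below a value. A population assay cannot tell polymerase on fewer cells from less polymerase per cell.

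These factors set and hold hepatocyte identity through a network in which several members bind one another's genes. HNF4A is a nuclear receptor that is required for hepatocyte differentiation, and its gene has a downstream start used in the adult liver and an upstream start used mainly in pancreas and fetal tissue. FOXA1, FOXA2 and FOXA3 are forkhead pioneer factors that open liver enhancers, CEBPA and CEBPB are basic leucine zipper factors of metabolic and acute phase genes, ONECUT1 (HNF6) is a cut homeodomain factor, and PROX1 is a homeodomain factor of hepatoblast growth. RPB1 collects near gene starts, where polymerase pauses, and phosphorylation on serine 2 accompanies elongation and is highest toward gene ends.

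The RefSeq table (GRCh38.p14) held promoter windows for 6 of the 8 genes, with 8 windows of 300 bases that run from 250 bases before the start to 50 after it. FOXA2 and PROX1 had none. The motifs searched on both strands were TATAAA of the TATA box, CCAAT of the CCAAT box, GGGCGG of the GC box, TGTTTAC for forkhead factors, AGGTCA for nuclear receptors, ATCAAT for the ONECUT core, TTGCNNAA for C/EBP and TTCNNNGAA for STAT, none of which is contained in another. The 250 bases before both HNF4A starts are shown because RPB1 occupied both starts and the listed gene symbols separated them, and those before the ONECUT1 start because its RPB1 region differed most between the cell lines. Capitals mark every match to a motif searched.
HNF4A upstream start (chr20:44355449-44355698, plus strand): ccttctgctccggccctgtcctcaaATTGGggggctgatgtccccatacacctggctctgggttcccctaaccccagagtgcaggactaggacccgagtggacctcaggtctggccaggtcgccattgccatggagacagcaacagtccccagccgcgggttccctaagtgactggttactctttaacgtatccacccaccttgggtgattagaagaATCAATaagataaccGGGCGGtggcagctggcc
HNF4A downstream start (chr20:44400989-44401238, plus strand): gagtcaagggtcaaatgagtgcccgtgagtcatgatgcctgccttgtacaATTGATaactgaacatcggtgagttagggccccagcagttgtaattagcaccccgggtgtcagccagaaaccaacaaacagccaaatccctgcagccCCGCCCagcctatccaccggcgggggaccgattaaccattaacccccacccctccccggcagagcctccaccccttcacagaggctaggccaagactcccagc
ONECUT1 start (chr15:52790337-52790586, minus strand): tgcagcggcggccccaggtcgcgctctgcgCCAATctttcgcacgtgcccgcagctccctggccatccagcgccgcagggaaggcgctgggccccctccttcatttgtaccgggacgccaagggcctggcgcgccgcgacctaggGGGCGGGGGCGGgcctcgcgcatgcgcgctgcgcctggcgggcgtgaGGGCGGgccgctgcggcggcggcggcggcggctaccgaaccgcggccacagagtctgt

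The ONECUT core was present before both HNF4A starts, from 33 to 28 bases before the upstream start and, on the other strand, from 200 to 195 bases before the downstream start. It was in 6.26% of all 35116 promoter windows. The GC box was in all 8 windows, against 45% of all windows. The sequence TATAAA was in 3 windows, those of CEBPA, FOXA3 and CEBPB, against 11.5% of all windows, and began 30, 30 and 29 bases before the start. These 3 genes also held the 3 highest RPB1 values at a start in WT cells, but not in SHP-1 KO cells, where FOXA1 (61.3) stood just above FOXA3 (61.0). Their bases from 35 to 6 before the start are shown for this shared element, with TATAAA in capitals.
CEBPA (chr19:33302540-33302569, minus strand): ccgggTATAAAagctgggccggcgcgggcc
FOXA3 (chr19:45864291-45864320, plus strand): ccggcTATAAAgcgtggccgcctcccgcgg
CEBPB (chr20:50190795-50190824, plus strand): cgccctTATAAAtaaccgggctcaggagaa

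CCAAT was in 4 windows of 3 genes (34.6% of all windows) and AGGTCA in 1, that of FOXA3 (13.8%). The CEBPB windows overlap, and the same CCAAT was counted in both. No window held TGTTTAC, TTGCNNAA or TTCNNNGAA, which were in 3.42%, 10.5% and 7.66% of all windows. The windows of these genes were from 57.7% to 80.7% G and C, against a median of 58.7%. A match to these letters is not evidence of binding.

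The nearest-start rule listed many regions on these genes under the symbols of their neighbors. The share of such regions over all genes was not determined. It is therefore unknown whether these genes differ from others in this. By symbol, the lists held 39 (RPB1 WT), 45 (RPB1 SHP-1 KO), 77 (pSer2 WT) and 56 (pSer2 SHP-1 KO) regions of the 8 genes. For all genes, the lists held 46045, 41605, 102674 and 81012 regions in the same order. Position meant the window from 3 kb before each gene to 3 kb past its end in GENCODE release 44. By position, the lists held 41, 61, 106 and 84 regions of the 8 genes. Of these, 15, 25, 36 and 30 carried the symbol of another gene. In both RPB1 lists, the strongest region at 4 of the 8 genes was listed under another symbol. It was MIR3646 for HNF4A, LINC00261 for FOXA2, CEBPB-AS1 for CEBPB and PROX1-AS1 for PROX1. Values are therefore given by symbol and by position, and reads on the opposite strands of a gene and its antisense neighbor cannot be told apart.

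**Figure D1:**
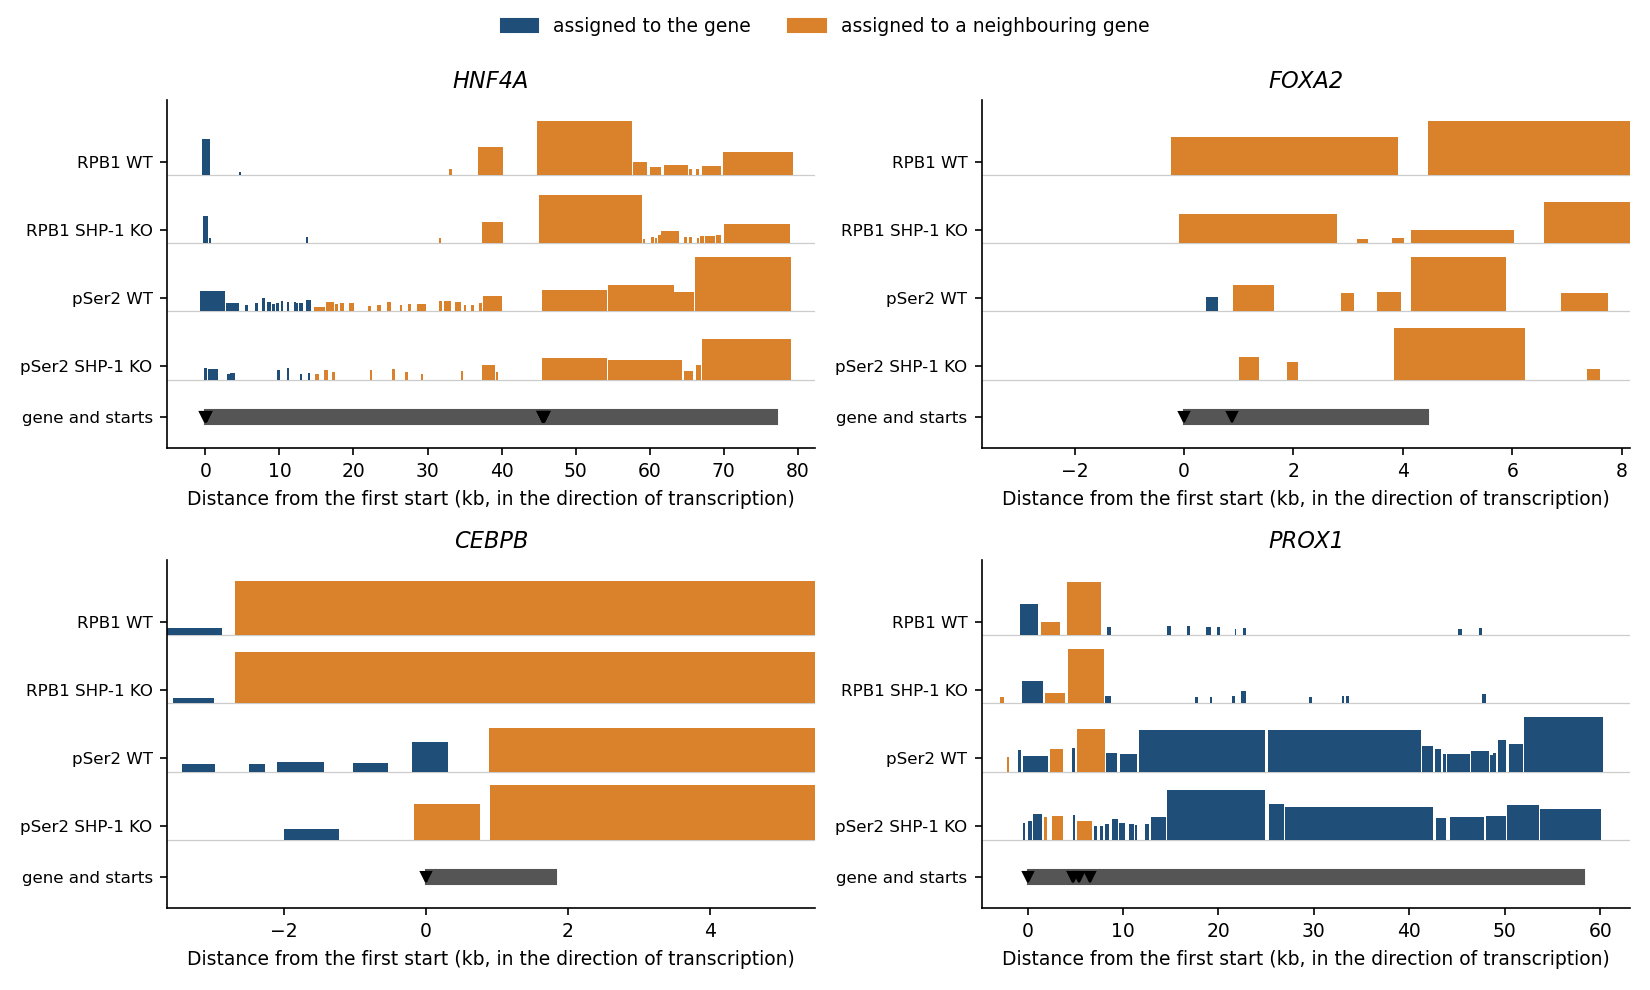
Regions at the 4 genes whose strongest RPB1 region was listed under another symbol, against the distance from the first GENCODE start in kb. Bar width is the extent of the region and bar height its fold enrichment relative to the highest of that antibody at the gene, with blue for regions listed under the gene and orange for those listed under a neighbor, black triangles for starts, and regions past the edge of a panel not shown in full. The downstream part of HNF4A, the RPB1 region over CEBPB and all RPB1 regions at FOXA2 are orange.

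HNF4A (chr20:44355699-44432845, plus strand) was occupied at both of its starts and most strongly from the downstream start onward. At the upstream start, the RPB1 region of WT cells (44355308 to 44356381) had a fold enrichment of 25.6 and that of SHP-1 KO cells (44355362 to 44356061) one of 19.8. At the downstream start, a region of 12851 bp in WT cells (44400513 to 44413363) reached 39.0 and one of 13900 bp in SHP-1 KO cells (44400797 to 44414696) reached 34.8. Both of the latter were listed under MIR3646, a microRNA gene. The summit of the WT region lay 1 base before a GENCODE start (44401284), and that of the SHP-1 KO region lay 3317 bases from the nearest GENCODE start. The gene end carried a further RPB1 region, listed under LINC01430, of 16.5 in WT cells and 14.1 in SHP-1 KO.

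The pSer2 signal of HNF4A was spread over the body of the downstream transcripts. In WT cells, regions of 8856, 8874, 2621 and 12897 bp lay side by side from 44401090 to 44434766, with fold enrichments of 8.71, 10.6, 7.68 and 21.8 in this order. The last, at the gene end, was above 99.9% of the pSer2 regions of WT cells. In SHP-1 KO cells, the region at the gene end reached 16.3, at the percentile of 99.5. The pSer2 region that began at the downstream start had a fold enrichment of 8.71 in WT cells and 8.68 in SHP-1 KO. At the upstream start, the pSer2 region of WT cells covered 3407 bp with a fold enrichment of 8.19. In SHP-1 KO cells, 2 regions lay over it, one of 472 bp with 4.68 (44355521 to 44355992) and one of 1372 bp with 4.26 (44356057 to 44357428). The upstream start thus had the lower pSer2 value in the SHP-1 KO list. The values of the region that began at the downstream start were nearly equal. Its summits lay 3183 (WT) and 3186 (SHP-1 KO) bases past the nearest start, so they are values of the gene body. Over the whole gene and 3 kb on each side, pSer2 regions covered 68.0% of the bases in WT cells and 50.4% in SHP-1 KO, and RPB1 regions covered 44.9% and 41.7%. Such shares were not determined over all genes, and the whole pSer2 list held 102674 regions in WT cells against 81012 in SHP-1 KO. The promoter region of HNF4A-AS1, an antisense RNA gene within HNF4A, had RPB1 values of 20.3 in WT cells and 14.9 in SHP-1 KO.

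Among the forkhead genes, FOXA3 and FOXA1 had high RPB1 values at their starts, and FOXA2 had a lower one. At FOXA3 (chr19:45863989-45873797, plus strand), the RPB1 region over the start had a fold enrichment of 91.5 in WT cells, the 80th of the list, and 61.0 in SHP-1 KO cells, the 266th. At FOXA1 (chr14:37589552-37596059, minus strand), the values were 71.9, the 369th, and 61.3, the 264th. At FOXA2 (chr20:22580998-22585455, minus strand), the regions over the start (22581543 to 22585699 in WT and 22582656 to 22585544 in SHP-1 KO cells) reached 29.2 and 22.6. They were listed under LINC00261, a neighboring long noncoding RNA gene. A region annotated as the promoter of LINC00261, with its summit 2.49 kb past the end of FOXA2 in WT cells, had the higher values of 41.3 and 31.6. By symbol, FOXA2 held no RPB1 region in either list and a single pSer2 region, of 2.84, in the WT list.

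The FOXA3 pSer2 region at the gene end had a fold enrichment of 12.8 in WT cells (45870481 to 45876927) and 20.2 in SHP-1 KO cells (45871569 to 45876243), at percentiles of 99.0 and 99.8 of their lists. At the FOXA3 start, by contrast, pSer2 was 8.96 in WT cells and 6.23 in SHP-1 KO. FOXA2 had pSer2 values just past its end of 10.4 in WT cells and 9.86 in SHP-1 KO. Both regions were listed under LINC00261 and annotated as promoter. FOXA1, in spite of its high RPB1 value at the start, had no pSer2 region above 4.82 in WT or above 3.71 in SHP-1 KO cells. These FOXA1 values stood at percentiles of 79.8 and 47.1 of their lists. Downstream of FOXA1, RPB1 regions were lower in the SHP-1 KO list. The region 1.04 kb past the gene end (37587744 to 37589059) had a value of 15.2 in WT cells and 5.29 in SHP-1 KO, and the one 5.88 kb past the end (37583172 to 37584513) a value of 17.0 and 8.16. In SHP-1 KO cells 10 RPB1 regions carried the symbol FOXA1, against 5 in WT cells. Of the 10, only 2 had no overlapping WT region, with values of at most 3.68, and several others lay over the same WT region.

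**Figure D2:**
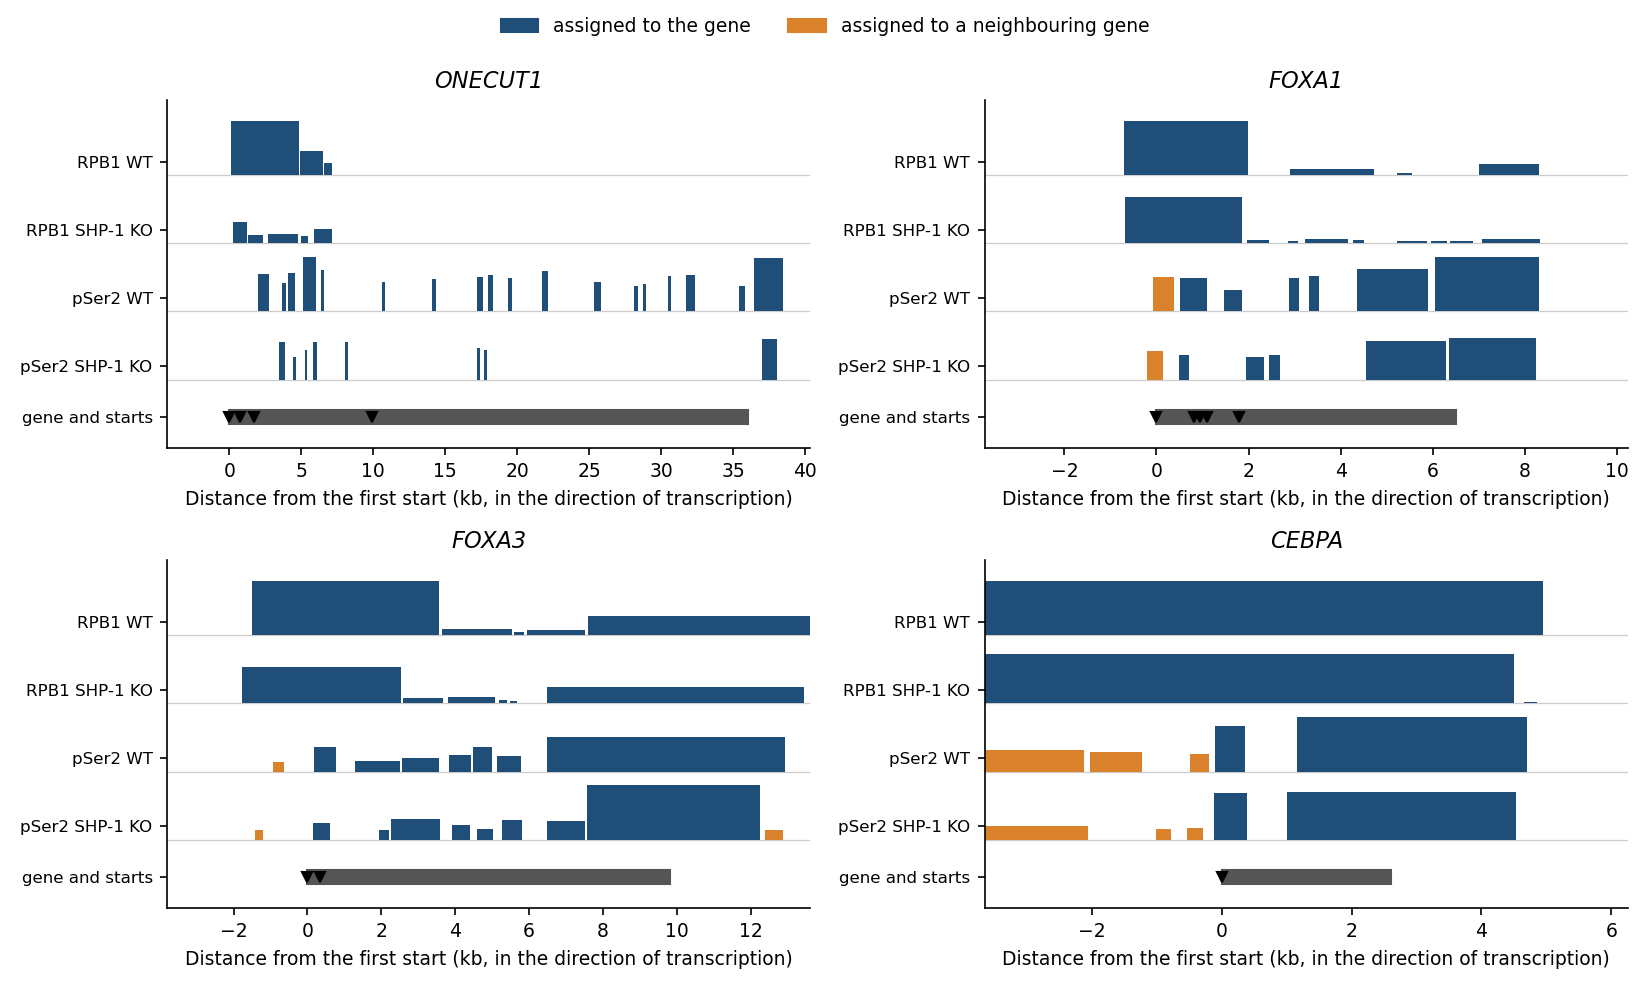
Regions at the other 4 genes, drawn in the same way, with the distance from the first GENCODE start in kb. The RPB1 region over the ONECUT1 start is tall and unbroken in WT cells and is split into lower regions in SHP-1 KO cells, whereas the RPB1 regions over the starts of CEBPA and FOXA1 are similar in both, and the pSer2 region at the FOXA3 end is taller in SHP-1 KO cells.

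CEBPA had the highest RPB1 value of the 8 genes in both cell lines, while in pSer2 HNF4A was higher in WT cells and FOXA3, CEBPB and HNF4A were higher in SHP-1 KO cells. The gene (chr19:33299934-33302534, minus strand) is short and was covered whole by an RPB1 region of 9785 bp in WT cells (33297588 to 33307372) and of 8617 bp in SHP-1 KO cells (33298038 to 33306654). Their fold enrichments were 146 and 133, the 3rd highest of the WT list and the 2nd highest of the SHP-1 KO list. The pSer2 region at the CEBPA start had a value of 14.7 in WT cells and 15.1 in SHP-1 KO, and the one over the gene end had a value of 17.6 and 15.4. A cluster of 4 RPB1 regions of WT cells had summits from 22.0 to 28.3 kb downstream of the start. Its strongest region (33277500 to 33280284) reached 30.1 in WT cells, where the SHP-1 KO list held 2 smaller regions of 9.74 and 6.38. It was the single one of 5 distal CEBPA regions with a counterpart to pass 1.5-fold of the median ratio. The next regions of the cluster had values of 13.6 and 6.59 in WT cells, against 9.23 and 5.22 in SHP-1 KO. A second distal region, 8.84 kb from the start (33293401 to 33294341), had values of 11.1 and 10.0.

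CEBPB (chr20:50190830-50192668, plus strand), an intronless gene that responds to cytokines and hormones, was covered by an RPB1 region of 8663 bp in WT cells (50188143 to 50196805) and 9001 bp in SHP-1 KO cells (50188153 to 50197153). Their fold enrichments of 84.0 and 79.0 placed them 131st and 65th in their lists. Both were listed under CEBPB-AS1. The RPB1 regions under the symbol CEBPB lay upstream and were lower than these, with highest values of 10.96 and 8.08. Those values stood at percentiles of 73.4 and 68.2 of their lists. At the CEBPB start, the pSer2 region had a value of 10.4 in WT cells (50190640 to 50191148) and 12.6 in SHP-1 KO cells (50190668 to 50191591). The first carried the symbol CEBPB and the second CEBPB-AS1. The pSer2 regions past the gene end reached 15.1 and 19.1. By symbol alone, the highest pSer2 value of CEBPB was 10.4 in WT cells and 3.58 in SHP-1 KO, so that the direction by symbol is opposite to that by position.

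ONECUT1 (chr15:52755053-52791078, minus strand) showed the largest difference in RPB1 between the cell lines among the 8 genes. In WT cells, a region of 4722 bp over the start (52786247 to 52790968) had a fold enrichment of 40.6. In SHP-1 KO cells, the same bases held regions of 970, 1024 and 2091 bp with fold enrichments of 16.1, 6.34 and 6.80. The next WT region inward (52784577 to 52786140) had a value of 17.9, against 10.6 and 5.81 for the SHP-1 KO regions over it. In pSer2, 23 regions carried the symbol ONECUT1 in WT cells and 9 in SHP-1 KO cells, with highest values of 5.93 and 4.46. No pSer2 region of SHP-1 KO cells came within 1 kb of a start of ONECUT1, where the WT list held 2, of 4.06 and 3.22. The share of the gene and its flanks covered by pSer2 regions was 21.2% in WT cells and 6.68% in SHP-1 KO, against 16.2% and 14.0% for RPB1. Covered shares were not determined over all genes, and the pSer2 list of WT cells was the longer one as a whole.

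PROX1 (chr1:213983181-214041510, plus strand) had RPB1 at both of its groups of starts and long pSer2 regions over its body. The first start had RPB1 values of 18.3 in WT cells and 13.3 in SHP-1 KO. The downstream starts had the higher values of 31.6 and 32.1 (213987288 to 213990912 and 213987394 to 213991203), with summits 4.82 kb from the first start and listed under PROX1-AS1. In pSer2, a short region over the first of these downstream starts had a value of 4.55 in WT cells (213987797 to 213988191) and 4.79 in SHP-1 KO cells (213987908 to 213988163). The region that followed it had a value of 8.29 in WT cells (213988360 to 213991294), where the SHP-1 KO list held 4 regions of at most 3.72. The body was covered in WT cells by regions of 13216 and 16096 bp with values of 8.11 and 8.00, and in SHP-1 KO cells by regions of 10225 and 15513 bp with values of 9.61 and 6.33. The region over the PROX1 end had a value of 10.6 in WT cells, against 6.79 and 5.96 for the SHP-1 KO regions over it. PROX1 had the highest share of bases covered by pSer2 in both cell lines, 89.9% in WT cells and 84.1% in SHP-1 KO, while RPB1 regions covered 16.4% and 17.9%.

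At the starts, the order of the RPB1 values in WT cells was CEBPA, FOXA3, CEBPB, FOXA1, ONECUT1, HNF4A, PROX1 and FOXA2, from 146 to 29.2. In SHP-1 KO cells, it was CEBPA, CEBPB, FOXA1, FOXA3, HNF4A, PROX1, FOXA2 and ONECUT1, from 133 to 16.1. ONECUT1 moved from the middle of the order to its end. Without replicates, the spread within a gene is unknown, and neighbors in this order such as FOXA1 and FOXA3 in SHP-1 KO cells (61.3 and 61.0) cannot be ranked. The median of all regions was 5.51 in the WT and 5.62 in the SHP-1 KO list for RPB1. Each of the 8 genes stood above it at a start in both lists. This set the strongest region of a gene against all regions, so it does not show high occupancy. Among the strongest regions of genes by symbol, CEBPA, FOXA1 and FOXA3 had RPB1 percentiles of at least 97.4 in either list. ONECUT1 had 78.4 (WT) and 46.8 (SHP-1 KO). HNF4A and PROX1 by symbol, each its weaker start, had 55.0 and 41.1 (WT) and 57.2 and 38.9 (SHP-1 KO). CEBPB by symbol, which leaves out the region over the gene, had 27.2 (WT) and 22.6 (SHP-1 KO). For pSer2, the medians were 3.69 and 3.80, and the values at a start lay below them for FOXA1 in both lists.

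**Figure D3:**
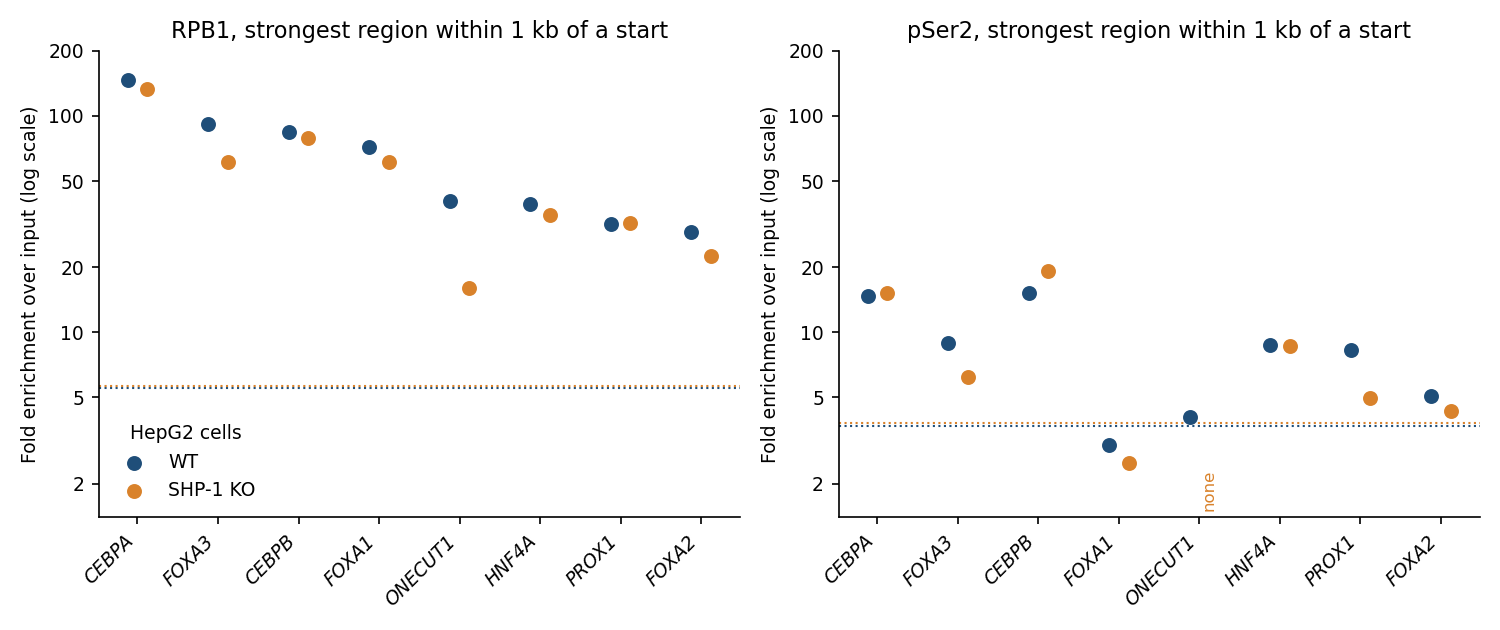
Fold enrichment over input, on a log scale, of the strongest RPB1 (left) and pSer2 (right) region within 1 kb of a GENCODE start of each gene, whatever its listed symbol, with 1 point per library and dotted lines at the median of all regions of each list. CEBPA is highest for RPB1 in both cell lines and ONECUT1 has the widest gap between WT and SHP-1 KO cells. A region counts if any part of it is within 1 kb of a start, so its summit can lie farther away. For CEBPB the pSer2 point is the region that begins inside the gene and runs past its end. For HNF4A the pSer2 summits lie 3183 (WT) and 3186 (SHP-1 KO) bases past the nearest start. The scales of the 2 antibodies cannot be compared.

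At most of these genes the strongest pSer2 region lay nearer the gene end and the strongest RPB1 region nearer the start. The same held for most protein-coding genes with a region, so this placement is not particular to the 8 genes. In WT cells, the summit of the strongest pSer2 region was nearer the gene end than the first start at 7 of 8 genes. Of all protein-coding genes with a region, 68.3% were so placed. For RPB1, it was 2 of 8 genes, against 16.8% of all genes. In SHP-1 KO cells, the numbers were 7 of 8 genes for pSer2 (67.6% of all genes) and 2 of 8 for RPB1 (16.5%). The RPB1 exceptions were HNF4A, whose downstream start is nearer the end than the first start, and FOXA2, whose strongest region was annotated as the LINC00261 promoter. The strongest pSer2 region at FOXA2, counted here as nearer the gene end, was also listed under LINC00261 and annotated as promoter. In WT cells, the pSer2 summit was 0.092 kb past the end of PROX1, 0.330 kb past that of FOXA3, 0.681 kb past that of FOXA2, 0.714 kb past that of CEBPA, 0.771 kb past that of FOXA1 and 2.32 kb past that of CEBPB, and it was 0.767 kb before that of HNF4A. At ONECUT1 it was 5.93 kb from the first start in WT cells and 1.85 kb past the gene end in SHP-1 KO cells, but the WT value of 5.93 was nearly tied with one of 5.80 just past the gene end. At PROX1 it moved from the gene end in WT cells to 21.6 kb from the first start in SHP-1 KO cells, where the body reached 9.61 and the region over the gene end 5.96. At CEBPA in SHP-1 KO cells, the pSer2 value of 15.4 at the gene end was nearly tied with one of 15.1 at the start.

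**Figure D4:**
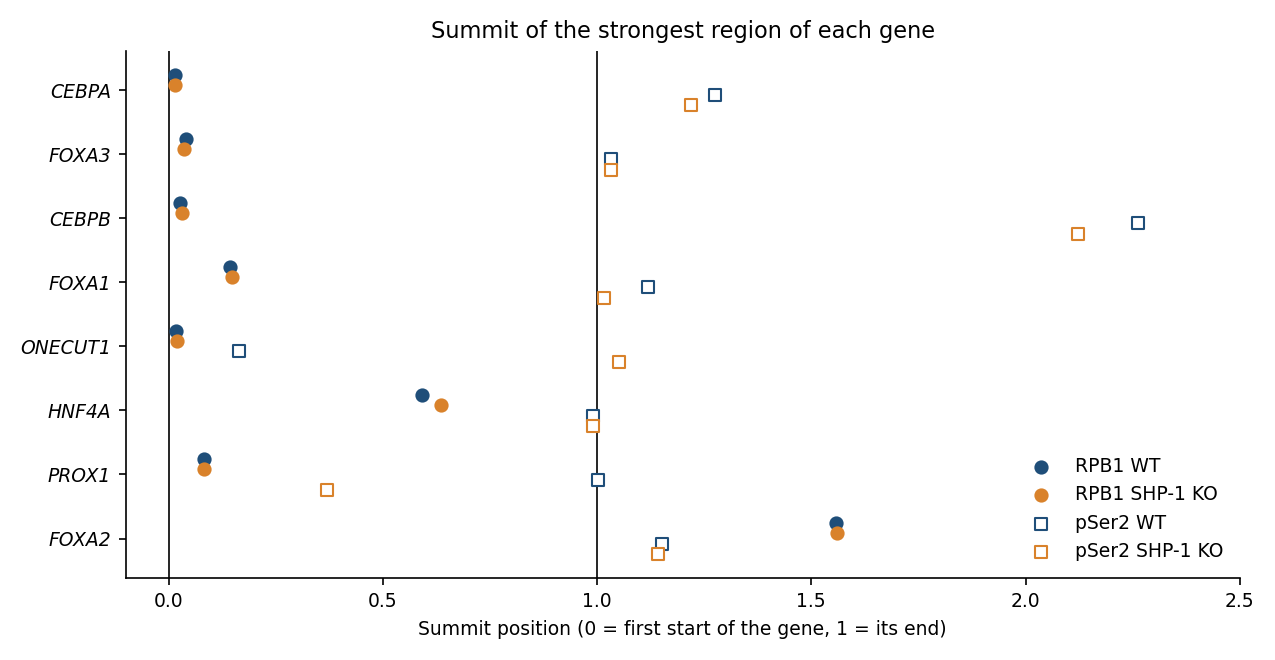
Position of the summit of the strongest region of each gene by position, as a fraction of the gene from its first start (0) to its end (1), with filled circles for RPB1, open squares for pSer2, blue for WT and orange for SHP-1 KO cells. Most RPB1 summits sit near 0 and most pSer2 summits near or past 1, with the exceptions of HNF4A and FOXA2 for RPB1, ONECUT1 for pSer2 in WT and PROX1 for pSer2 in SHP-1 KO cells.

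The comparison of SHP-1 KO with WT cells asks whether loss of SHP-1 goes with other polymerase levels on the genes of these regulators. By position, all genes here means protein-coding genes. The ratio of the strongest regions was divided by the median ratio of all genes with a region in both lists, which was 0.742 for RPB1 and 0.936 for pSer2 by symbol, and a ratio past 1.5-fold either way was counted. For RPB1 by symbol, none of the 7 genes with values was higher in SHP-1 KO cells past this fold (11.3% of all genes) and 1, ONECUT1, was lower (9.64% of all genes). The ratio of ONECUT1 was 0.396, or 0.53 relative to the median. It stood at the percentile of 3.30 among 12877 genes. By position, again none of the 8 genes was higher (8.66%) and only ONECUT1 was lower (8.33%). The relative ratios of the other genes by position were from 0.923 for FOXA3 to 1.403 for PROX1, and 6 of the 8 were above 1. Without division by the median, PROX1 was the single gene with an RPB1 ratio above 1 by position, at 1.01. For PROX1 the percentile was 88.1 among 12932 genes. A share of 1 in 8 is near the share of all genes past the fold.

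For pSer2, the calls depended on how regions were assigned. By symbol, 1 of 7 genes was higher in SHP-1 KO cells (8.44% of all genes), which was FOXA3 with a relative ratio of 1.69, and 2 were lower (8.35%), which were CEBPB with 0.368 and HNF4A with 0.610. By position, FOXA3 was again higher, with 1.699 (8.38% of all genes), and none of the 8 genes was lower (8.35%). CEBPB was then at 1.36 and HNF4A at 0.801, since the strongest pSer2 regions of both genes carry other symbols. The highest pSer2 values of FOXA1, FOXA2, CEBPA, ONECUT1 and PROX1 by position gave relative ratios from 0.809 to 1.02. For ONECUT1 the ratio of summed enrichment (fold times length) was 0.339, and for PROX1 the ratio within 1 kb of a start was 0.629, both past 1.5-fold. The lower value at the upstream start of HNF4A, 8.19 against 4.68, is a measurement at that start and not one of the gene as a whole.

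**Figure D5:**
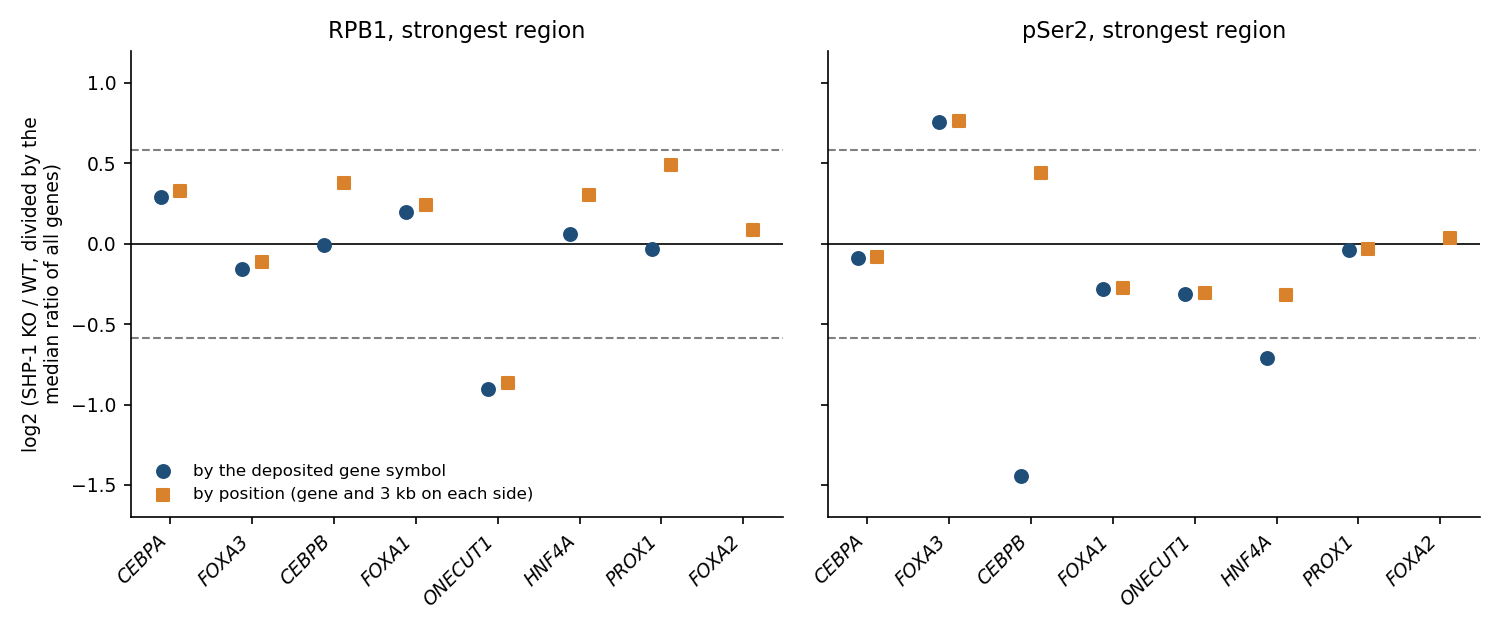
The log2 ratio of SHP-1 KO to WT for the strongest region of each gene, divided by the median ratio of all genes, by the deposited gene symbol (circles) and by position (squares), with dashed lines at 1.5-fold. For RPB1 only ONECUT1 lies outside the dashed lines, and for pSer2 the points of CEBPB change sign between the assignments while FOXA3 lies above the upper line in both. FOXA2 has no circle because its symbol had no RPB1 region and no pSer2 region in SHP-1 KO cells.

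Of the RPB1 regions of the 8 genes by symbol, 12 of 39 in WT cells had no overlapping SHP-1 KO region (38.1% of all regions), and 8 of 45 in SHP-1 KO cells had no overlapping WT region (25.1% of all). The highest fold enrichment among them was 5.43 in WT cells and 5.46 in SHP-1 KO. For pSer2, 34 of 77 WT regions were not overlapped (47.8% of all), of which 17 were at ONECUT1 and 8 at HNF4A, and 4 of 56 SHP-1 KO regions were not overlapped (30.1% of all). None of these was above 5.84 in WT or 4.07 in SHP-1 KO cells. Among the 27 RPB1 regions of WT cells with a counterpart, 4 were lower in SHP-1 KO cells past 1.5-fold of the median ratio (13.2% of all such regions) and 4 were higher (16.8%). The lower ones were the start of ONECUT1, the strongest distal region of CEBPA and both regions downstream of FOXA1. Their relative ratios were 0.458, 0.374, 0.403 and 0.557 for ONECUT1, CEBPA and the nearer and farther FOXA1 region. The higher ones were 3 regions of at most 4.30 in WT cells at PROX1 and an intronic region of FOXA3 that a longer region running past the gene end overlaps in SHP-1 KO cells. Among the 43 pSer2 regions with a counterpart, 6 were lower (10.1%) and 4 were higher (11.6%). The lower ones were 3 at HNF4A and 1 each at FOXA3, ONECUT1 and PROX1, and the higher ones were 3 at FOXA3 and 1 at PROX1. A single SHP-1 KO region at FOXA3 (45866256 to 45867569, with 7.64) gave 2 of these higher calls, for WT regions of 3.92 and 4.94. The SHP-1 KO region over the summit of the WT region of 3.92 had a value of 3.68, which is not higher.

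The lists of these cells held the markers of hepatocytes. Of 10 hepatocyte genes, 10 had an RPB1 region in WT cells and 8 in SHP-1 KO cells, with TF (transferrin) highest at 93.8 in WT cells. The lowest in WT cells were FGB (7.25) and APOA1 (4.02). The APOA1 region was away from promoters and below the median of all RPB1 regions (5.51). By the listed symbols, APOA1 and APOA2 were without an RPB1 region in SHP-1 KO cells. Of 12 transcription factor genes of other lineages, 0 had an RPB1 region in either cell line. Regions of pSer2 away from promoters were listed for PAX6 (3.30) and TAL1 (4.69) in WT cells and for TAL1 (3.42) in SHP-1 KO cells. Of 20 other transcription factor genes of the liver, 16 had an RPB1 region in WT cells and 17 in SHP-1 KO cells. The strongest in WT cells were XBP1 (68.7), a factor of the unfolded protein response, HHEX (65.2), a homeodomain factor of liver budding, and GATA4 (64.7), a zinc finger factor of foregut endoderm. ONECUT3, GATA6, NR2F2 and SOX9 had none by symbol in WT cells. In SHP-1 KO cells, NR2F2 had a promoter RPB1 region of 35.6, and without a WT value it has no RPB1 ratio. Of the 16 with RPB1 values in both lists, 2 were higher in SHP-1 KO cells past 1.5-fold (11.3% of all genes) and 0 were lower (9.64%), which is near the share of all genes. These were CEBPD (21.7 and 28.9) and NR5A2 (11.3 and 15.3), named here after their values were seen. In pSer2, 0 of 16 were higher (8.44% of all genes) and 2 were lower (8.35%), CEBPD (5.88 and 2.31) and NR2F2 (6.89 and 4.26), again near the share of all genes.

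Of the noncoding genes beside the 8 genes, HNF4A-AS1, LINC00261, CEBPA-DT, CEBPB-AS1 and PROX1-AS1 had RPB1 and pSer2 regions in both cell lines and CEBPA-AS1 had none. Their strongest RPB1 regions were those described above, except for CEBPA-DT, which had values of 4.24 in WT cells and 8.21 in SHP-1 KO. Among 9237 genes with a region in all 4 lists, those most like HNF4A by symbol in their percentiles within each list were GRAMD4, RAC1 and ATAD3A. Their largest difference from HNF4A in any list was 3.70, 3.80 and 5.91 percentile points. By symbol HNF4A stands for its upstream start, with percentiles among genes of 55.0 (RPB1 WT), 57.2 (RPB1 SHP-1 KO), 78.1 (pSer2 WT) and 34.3 (pSer2 SHP-1 KO).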

How the data were processed

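Read trimming (Trimmomatic), alignment to hg38 (BWA) and narrow peak calling against input DNA (MACS2) were done by the authors and are named in the submitters' processing notes and the methods, with versions not given in the sources used here. Each deposited list gives, for every region, a ratio (the fold enrichment of its summit over input) and the −log10 q-value (at least 1.31 in each list), with the nearest gene. The authors' deposited table of RPB1 differences between SHP-1 KO and WT cells holds their own comparison and was not used. The input libraries were not analysed here. The genes, gene lists and motifs were chosen with earlier results of these data known. Regions were assigned by the deposited symbol or, with GENCODE release 44, by position. Overlap meant at least 1 bp. Named genes were the 8 members, from the other liver list the 3 strongest in RPB1 WT and those without an RPB1 region, any gene of the other lineages with an RPB1 region, the neighboring noncoding genes, and 3 genes most like HNF4A. The 8 were fixed and no test was run with 1 library per group. The functions were tested on simulated regions with Python 3.11.15, pandas 2.3.3 and NumPy 2.4.6. The alternatives were a −log10 q-value of at least 5, other assignments, reciprocal overlap, a fold of 2, undivided ratios, summed enrichment and promoter regions only.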

Additional observations from a re-analysis of the deposited data

How the results depend on the processing

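Without read counts the lists give no sequencing depth, and with 1 library per antibody and cell line no difference has a replicate check. No paired analysis was possible because each group holds 1 library. When regions under a −log10 q-value of 5 were left out, the pSer2 SHP-1 KO list kept 32 regions of the 8 genes, against 56. When overlap had to reach 50% of both regions, 41.0% of the RPB1 and 31.2% of the pSer2 regions of WT cells were overlapped, against 69.2% and 55.8%. The number of genes past the fold in RPB1 went from 1 to 2 with undivided ratios (ONECUT1 and FOXA3) and to 0 with a fold of 2. In pSer2 it went from 3 to 1 with a fold of 2, to 1 by position and to 4 with summed enrichment (fold times length). With summed enrichment the pSer2 ratio of ONECUT1 went from 0.804 to 0.339 and that of HNF4A from 0.610 to 0.388, and within 1 kb of a start that of PROX1 went from 0.972 to 0.629. The relative pSer2 ratio of CEBPB turned from 0.368 to 1.36 by position and 1.32 within 1 kb of a start, that of FOXA3 from 1.69 to 0.726 for promoter regions and 0.729 within 1 kb of a start, and that of HNF4A from 0.610 to 1.04 within 1 kb of a start. Both assignments of single ratios by position were chosen after seeing the data. These follow from which region stands for the gene. Of 80 alternative values of single ratios, 72 were within 1.5 times of the value reported. Undivided ratios differ from it only by the median ratio (0.742 for RPB1 and 0.936 for pSer2). The −log10 q-value of at least 5 kept the same strongest regions. Values of these 2 kinds could not fall outside 1.5 times, so the count is not a measure of robustness.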
